A study of Mus musculus with 18 samples.

Results

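The neuronal RNA splicing regulators described here are 10 genes of 4 families of RNA-binding proteins, chosen by symbol: Celf2, Celf4 and Celf5, Rbfox1, Rbfox2 and Rbfox3, Nova1 and Nova2, and Elavl3 and Elavl4. The list was made with earlier results of these data known. Its members were 10 of the 19057 genes that had a probe with a single symbol on the Illumina MouseWG-6 v2 array, and 37 of the 45281 probes belonged to them. Each gene was read at the probe with the highest mean over the 18 arrays, and its other probes served as a check. Values are log2 expression after the neqc normalisation, in which a level of 5 is close to background. Of the 10 members, 8 had a mean at or above that level, while Nova1 and Nova2 did not.

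The arrays came from granule neuron progenitors (GNPs), the dividing cells of the neonatal cerebellum that give rise to granule neurons, and from medulloblastoma (MB), the cerebellar tumour that arises from them in Ptch+/- mice. GNPs were isolated at postnatal day 6 on a percoll gradient with a pre-plating step, with 4 arrays for each of 4 genotypes: wild-type and Ptch+/- on a C57Bl/6 background, NdpKO on a mixed background, and NdpKO;Ptch+/-, whose background was given for replicate 2 alone, as mixed. Ptch+/- mice carry 1 functional allele of the Hedgehog receptor Patched, and NdpKO mice lack Norrin, a secreted ligand of the receptor Frizzled4, through a lacZ cassette in the X-linked Ndp locus. Both genotypes that lack Ndp were restricted to males while controls could be of either sex, and the design text has controls from the same breeding cohort whereas the labels give them a different background. Against wild-type or Ptch+/- GNPs, loss of Ndp can therefore not be told apart from sex or, by the labels, background. There was 1 tumour for each of Ptch+/- and NdpKO;Ptch+/-; both tumours were labelled postnatal day 6, whereas the design text takes tumours from symptomatic mice. By the study's description the GNP arrays of a genotype came from separate animals, and the labels do not tie replicate numbers to litters.

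The labels of NdpKO;Ptch+/- replicate 2 disagreed, since the title named the compound mutant and the genotype field named the Ndp knockout. It was grouped by its title. This is also the replicate with a background label, so the labels do not settle the background of the compound mutant. At the brightest probe of Prm1, a protamine gene, every wild-type and NdpKO array lay between 4.11 and 4.13 and every Ptch+/- and NdpKO;Ptch+/- GNP array between 9.79 and 10.66, and this replicate read 9.92. Ptch1 was 8.63 ± 0.06 (SD, n = 4) in wild-type and 7.83 ± 0.14 in Ptch+/- GNPs, a fall that passed the test (limma, adjusted p = 0.00402). Ndp lay below level 5 on every array and could not serve as a check of its knockout. On the first principal component of the 16 GNP arrays, NdpKO replicate 4 (-15.2) and NdpKO;Ptch+/- replicate 1 (16.6) stood apart from the other arrays of their genotypes, which lay at 14.5 to 20 and at -19.7 to -8.41.

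These proteins bind short motifs in pre-mRNA and shift which exons, introns or 3′ ends a neuron keeps. RBFOX proteins bind UGCAUG, NOVA proteins bind clusters of short CA motifs, CELF proteins bind GU-rich stretches, and the ELAVL (Hu) proteins bind AU- and U-rich stretches and also stabilise mRNA. In the cerebellum their levels change as progenitors leave the cell cycle, and RBFOX3, known as the antigen NeuN, is the standard nuclear marker of mature granule neurons. In bulk samples such as these, fewer cells of a type and less RNA per cell cannot be told apart.

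RefSeq promoters (GRCm38.p6, 250 bases before to 50 after a start site) were at hand for 8 members with 20 start sites, and for neither Celf4 nor Rbfox2. The promoters below are shown because these 3 genes are the members with an entry whose Ptch+/- arrays all lay above the wild-type arrays, and the capitals mark CAGCTG or CAGATG on either strand, E-box letters of the kind that proneural factors such as Atoh1 and Neurod1 bind. The Rbfox1 window is chr16:7069585-7069884 on the plus strand, the Elavl3 window is chr9:22051974-22052273 on the minus strand, and the Elavl4 window is chr4:110287478-110287777 on the minus strand.
Rbfox1: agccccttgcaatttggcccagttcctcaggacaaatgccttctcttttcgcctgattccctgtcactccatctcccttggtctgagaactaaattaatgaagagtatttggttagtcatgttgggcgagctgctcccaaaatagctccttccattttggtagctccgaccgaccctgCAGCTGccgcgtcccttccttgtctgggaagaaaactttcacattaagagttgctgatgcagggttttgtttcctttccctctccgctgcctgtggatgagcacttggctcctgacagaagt
Elavl3: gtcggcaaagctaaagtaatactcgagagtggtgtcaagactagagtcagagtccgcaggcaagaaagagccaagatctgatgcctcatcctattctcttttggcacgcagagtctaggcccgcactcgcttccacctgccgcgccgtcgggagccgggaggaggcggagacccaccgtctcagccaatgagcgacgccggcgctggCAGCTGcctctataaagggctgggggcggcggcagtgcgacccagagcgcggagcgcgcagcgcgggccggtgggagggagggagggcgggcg
Elavl4: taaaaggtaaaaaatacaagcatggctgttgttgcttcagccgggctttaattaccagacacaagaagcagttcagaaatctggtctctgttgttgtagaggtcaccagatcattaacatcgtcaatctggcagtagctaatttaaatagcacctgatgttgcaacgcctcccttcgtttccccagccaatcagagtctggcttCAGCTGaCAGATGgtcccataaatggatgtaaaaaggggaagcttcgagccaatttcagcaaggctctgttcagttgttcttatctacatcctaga
The first base of the match lay 72 bases before the start in Rbfox1 and 43 before it in Elavl3, and Elavl4 held 2 matches 1 base apart, at 46 and 39 bases. Either E-box was found at 7 of the 20 member start sites and in 30.6% of all 32851 promoters of this length. Rbfox1 has 2 listed start sites and Elavl4 has 4, and the array does not tell which was used. The windows printed for these genes are ones that hold a match, while their first sites held neither motif. The printed Elavl4 window overlaps that of the next start site. The GLI motif TGGGTGGTC and TTCAGCACC, part of the REST element, were searched on both strands too, are found in 0.253% and 0.371% of all promoters, and matched none of the member windows.

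Ptch+/- against wild-type GNPs asks what the loss of 1 Ptch allele does before tumours form. Most members read higher in Ptch+/- GNPs: 9 of 10 differences were positive, with a median of 0.39 against 0.00 over all probes and 0.03 over probes at or above level 5. Because the members were chosen with earlier results of these data known, such shares of direction, here and below, describe the list and do not test it. Celf4 was the single member that passed the test at its brightest probe, and 1.09% of all probes and 3.59% of those at or above level 5 passed it. At an unadjusted p under 0.05 there were 6 of 10 members and 13.2% of all probes. In 5 members, Celf4, Rbfox1, Rbfox2, Elavl3 and Elavl4, every Ptch+/- array lay above every wild-type array. Over all probes 4.79% had all Ptch+/- arrays higher, and 11.6% of those at or above level 5 did.

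Celf4, a CELF protein enriched in excitatory neurons, read 8.97, 9.18, 9.41 and 9.38 in the wild-type arrays and 9.998, 9.85, 9.98 and 9.64 in the Ptch+/- arrays. The groups did not overlap, and the difference was 0.63 ± 0.13 (SE), or 1.55-fold (limma, adjusted p = 0.0475). Its 3 next probes showed differences of 0.46, 1.26 and 0.72, each with all Ptch+/- arrays higher and with adjusted p-values of 0.147, 0.0615 and 0.0941. The call rests on all 8 arrays, since leaving out any 1 of them gave an adjusted p between 0.054 and 0.129 with a difference between 0.54 and 0.71. A fit to these 8 arrays alone also ended it (adjusted p = 0.076).

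**Figure D1:**
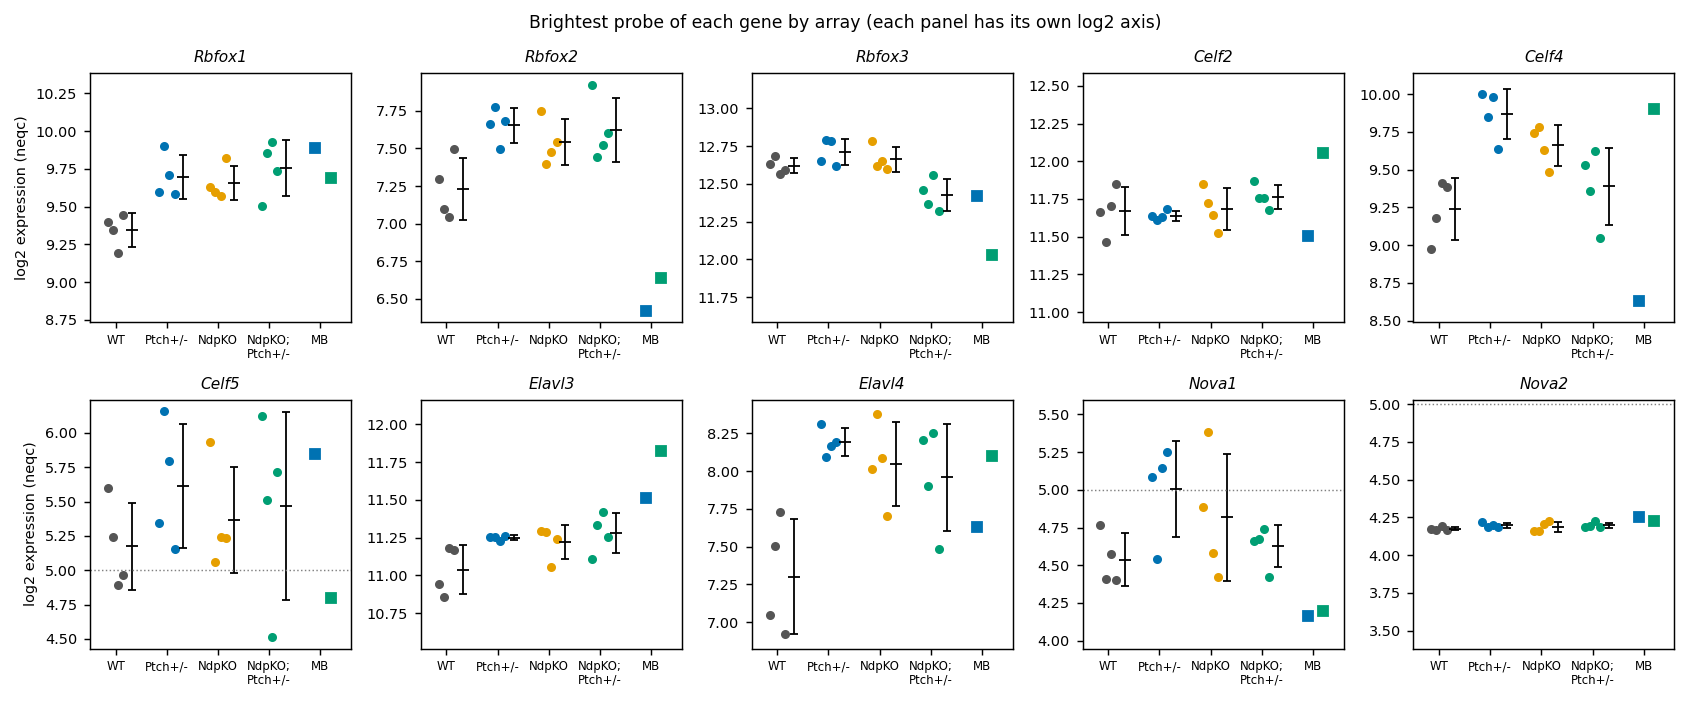
Log2 expression (vertical axis, a separate range in each panel) at the brightest probe of each of the 10 genes: circles are the 4 GNP arrays of each genotype with the mean and SD beside them, squares are the Ptch+/- MB (left) and the NdpKO;Ptch+/- MB (right), and the dotted line is level 5. All 12 mutant Rbfox1 arrays lie above the 4 wild-type arrays, and both tumours lie below every GNP array for Rbfox2.

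Elavl4 (HuD), which stabilises neuronal mRNAs as progenitors differentiate, had the largest difference of the 10. It read 7.05, 7.50, 7.73 and 6.92 in wild-type and 8.31, 8.10, 8.16 and 8.19 in Ptch+/- GNPs, with no overlap. The difference of 0.89 ± 0.21 did not pass the test (limma, adjusted p = 0.0618), nor did the second probe (0.65 ± 0.24, adjusted p = 0.243), at which the groups overlapped. Elavl3 (HuC), expressed from the last divisions of neuronal precursors onwards, read 11.04 ± 0.16 (SD) in wild-type and 11.25 ± 0.01 in Ptch+/- GNPs, a difference of 0.21 ± 0.08 that did not pass (adjusted p = 0.272).

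Rbfox1, a splicing regulator of neuronal excitability genes, read 9.40, 9.35, 9.19 and 9.45 in wild-type arrays. It read 9.59, 9.90, 9.71 and 9.58 in Ptch+/- arrays, all above the wild-type ones, and differed by 0.35 ± 0.10 (adjusted p = 0.116). Its 2 next probes were at background on every array. Rbfox2, the most widely expressed RBFOX gene, differed by 0.42 ± 0.12 (adjusted p = 0.124) at the brightest probe, without overlap, and by 0.05 ± 0.12 at the second. Rbfox3 differed by 0.09 ± 0.06 and Celf5 by 0.44 ± 0.33, and in both the groups overlapped. Nova1, a NOVA splicing factor, read 4.40 to 4.77 in wild-type and 4.54 to 5.25 in Ptch+/- GNPs (0.47 ± 0.20, adjusted p = 0.322), near background.

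Celf2, a CELF protein of developing brain, gave different answers at its probes. The brightest differed by -0.03 ± 0.08 and the second by 0.38 ± 0.27, while the third read 7.39, 7.24, 7.64 and 7.38 in wild-type and 8.61, 8.22, 7.98 and 8.35 in Ptch+/- GNPs. At this probe the groups did not overlap and the difference of 0.88 ± 0.17 passed the test (adjusted p = 0.0322). Leaving out any 1 of 7 of the 8 arrays ended that call, with adjusted p-values over all 8 between 0.0443 and 0.0953. Which transcripts each probe reads was not examined.

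NdpKO against wild-type GNPs showed no member past the test at its brightest probe (limma; 5 of 10 at an unadjusted p under 0.05), where 0.307% of all probes passed adjusted and 10.9% unadjusted. All 10 differences were positive, with a median of 0.24. Over probes at or above level 5 the median was 0.02 and 53.7% were positive. Both this comparison and the last used the same 4 wild-type arrays. In Celf4 and Rbfox1 every NdpKO array lay above every wild-type array, as it did at 2.9% of all probes and 6.16% of those at or above level 5. Celf4 read 9.74, 9.78, 9.63 and 9.48, a difference of 0.42 ± 0.13 (adjusted p = 0.234). Rbfox1 read 9.63, 9.60, 9.57 and 9.82, a difference of 0.31 ± 0.10 (adjusted p = 0.231). Elavl4 differed by 0.75 ± 0.21 (adjusted p = 0.166), with overlap. The third Celf2 probe read 8.67, 8.27, 8.43 and 7.88, above all wild-type arrays, and its difference of 0.90 ± 0.17 lay just under the threshold (adjusted p rounded to 0.05); leaving out any 1 of 7 of the 8 arrays ended that call, with an adjusted p of up to 0.163.

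NdpKO;Ptch+/- against Ptch+/- GNPs compares GNPs without and with Norrin where a Ptch allele is lost. Compound mutants were males, Ptch+/- controls could be of either sex, and backgrounds may differ. Loss of Norrin, sex and background therefore cannot be told apart here. No member passed the test (limma; 2 of 10 at an unadjusted p under 0.05, Celf4 and Rbfox3), and 0.0155% of all probes passed adjusted and 8.67% unadjusted. These 2 members were also the ones in which every compound array lay below every Ptch+/- array, as at 2.65% of all probes and 4.85% of those at or above level 5. Celf4 read 9.53, 9.36, 9.63 and 9.04 in the compound mutant, a difference of -0.48 ± 0.13 (adjusted p = 0.322). Its 3 next probes differed by -0.44, -1.21 and -0.66, again with all compound arrays lower. Rbfox3 read 12.65, 12.79, 12.79 and 12.62 in Ptch+/- and 12.46, 12.37, 12.56 and 12.32 in NdpKO;Ptch+/- GNPs, a difference of -0.29 ± 0.06, or 1.22-fold (adjusted p = 0.171). The second Rbfox3 probe differed by -0.30 ± 0.08, also without overlap (adjusted p = 0.291). Without NdpKO replicate 4 and NdpKO;Ptch+/- replicate 1, the difference at the brightest Rbfox3 probe was -0.30 and passed the test (adjusted p = 0.0481). These arrays were left out for their place on the first principal component of the same data. Rbfox3 correlated with that component (Pearson r = 0.511), so this call is not independent of the choice.

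**Figure D2:**
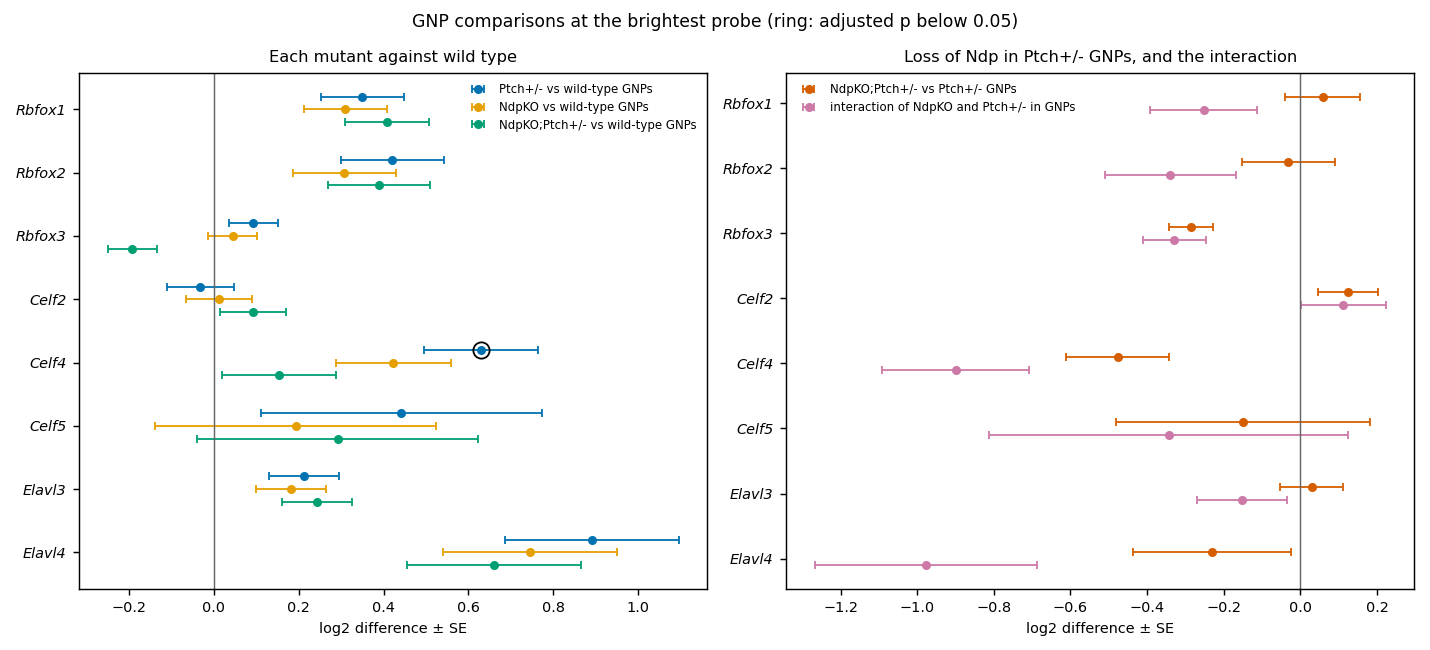
Log2 differences with their SE (horizontal axis) at the brightest probe of the 8 members at or above level 5: on the left each mutant genotype against wild type, on the right NdpKO;Ptch+/- against Ptch+/- and the interaction of the 2 mutations; a ring marks an adjusted p below 0.05. Celf4 in Ptch+/- GNPs (0.63) is the one ringed value, and Rbfox3 is lower in the compound mutant than in wild type (-0.19).

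The compound mutant also gave no call at a brightest probe against the NdpKO or the wild-type GNPs (limma; 1 and 5 of 10 at an unadjusted p under 0.05), where 0.00442% and 0.0508% of all probes were called and 5.6% and 6.95% passed unadjusted. Rbfox3 was lower on every compound array than on every NdpKO array (-0.24 ± 0.06, adjusted p = 0.842) and every wild-type array (-0.19 ± 0.06, adjusted p = 0.451). Of all probes 1.4% and 1.8% lay lower without overlap, and of those at or above level 5 1.63% and 2.81% did. Rbfox1 read 9.50, 9.86, 9.93 and 9.73, above every wild-type array, with a difference of 0.41 ± 0.10 (adjusted p = 0.254). All compound arrays lay above wild type at 1.83% of all probes and 3.08% of those at or above level 5. Thus all 12 mutant Rbfox1 arrays lay above the 4 wild-type arrays. Against wild type, Celf4 in the compound mutant differed by 0.15 ± 0.13, with a 95% interval from -0.14 to 0.45.

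The interaction term tests whether the effect of NdpKO differs between Ptch+/- and wild-type GNPs. Of the values at the brightest probes 9 of 10 were negative, where 45.7% of probes at or above level 5 were positive. The wild-type arrays of the earlier comparisons enter this term with the opposite sign. No member passed by limma at its brightest probe (4 of 10 at an unadjusted p under 0.05), against 0.495% of all probes adjusted and 13.3% unadjusted. Of probes at or above level 5, 1.68% passed adjusted. Celf4 came nearest, at -0.90 ± 0.19 (adjusted p = 0.0625; -0.96 without NdpKO replicate 4 and -0.95 without NdpKO;Ptch+/- replicate 1, adjusted p = 0.0285 and 0.0322), with every NdpKO array above every wild-type array and every compound array below every Ptch+/- array. Elavl4 gave -0.98 ± 0.29 (adjusted p = 0.144) and Rbfox3 gave -0.33 ± 0.08 (adjusted p = 0.0919). At other probes the third Celf4 probe passed with -2.08 ± 0.41 (adjusted p = 0.0489) and the third Celf2 probe with -1.27 ± 0.24 (adjusted p = 0.0476); leaving out any 1 of 13 and of 14 of the 16 arrays ended these calls. With both of those arrays left out, the interaction passed at the brightest probe of Celf4 (-1.01), Rbfox3 (-0.36) and Elavl4 (-1.17) (limma, adjusted p = 0.0171, 0.0475 and 0.048). Both arrays were left out for their place on the first principal component of the same data. Celf4, Rbfox3 and Elavl4 correlated with that component (Pearson r = 0.83, 0.511 and 0.776). The calls made without 1 or both of these arrays are therefore not independent of the choice.

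**Figure D3:**
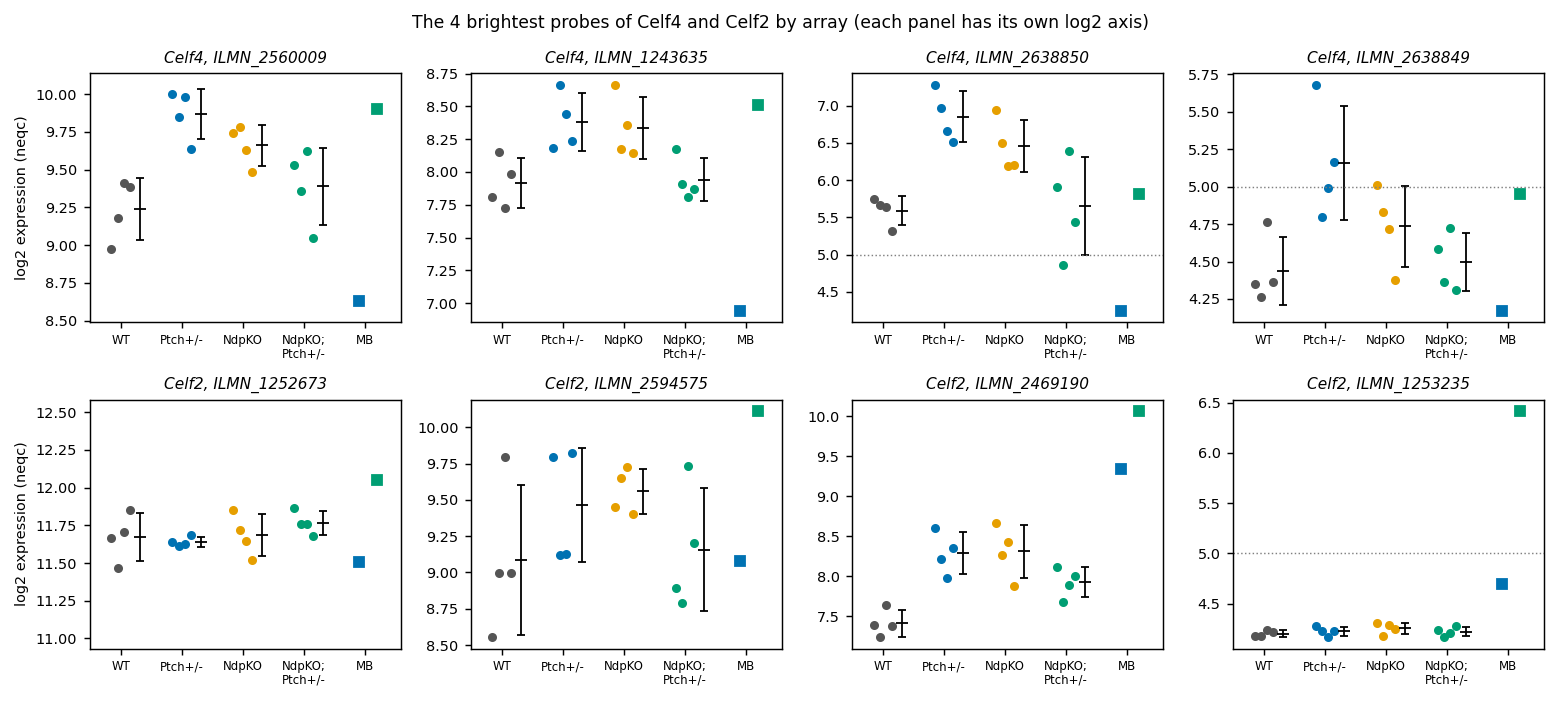
Log2 expression (vertical axis, a separate range in each panel) at the 4 brightest probes of Celf4 (top) and Celf2 (bottom), with symbols as in the plot of all 10 genes. At each Celf4 probe the Ptch+/- arrays lie above the wild-type and the NdpKO;Ptch+/- arrays, while the Celf2 probes differ among themselves.

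Markers of other cells of the cerebellum also differed between the genotypes. The 10 astrocyte and Bergmann glia markers had a summed linear signal of 14000 to 17900 in wild-type, 7970 to 10400 in Ptch+/-, 7460 to 12800 in NdpKO and 11500 to 14500 in NdpKO;Ptch+/- GNPs. Of these markers 7 of 10 were lower on every Ptch+/- array than on every wild-type array. Over all probes 4.48% were, and 10.3% of those at or above level 5. Sox9 passed in that comparison and Gfap in NdpKO against wild type, both lower. The 11 markers of maturing granule neurons had a summed signal of 10500 to 14000 in wild-type and 14300 to 18800 in Ptch+/- GNPs. In NdpKO it was 12300 to 18400 and in NdpKO;Ptch+/- GNPs 12300 to 15100, and both ranges overlapped that of wild type. Of these markers, Grin2b (1.18 ± 0.22) and the potassium channel gene Kcnd2 (0.71 ± 0.09) rose in Ptch+/- (limma, adjusted p = 0.0286 and 0.00656). Kcnd2 also rose in NdpKO (0.63 ± 0.09, adjusted p = 0.02) and in NdpKO;Ptch+/- GNPs (0.69 ± 0.09, adjusted p = 0.0196) against wild type. The 8 microglia and leukocyte markers had a summed signal of 981 to 1600 in wild-type, 564 to 987 in Ptch+/-, 464 to 726 in NdpKO and 564 to 883 in NdpKO;Ptch+/- GNPs. They gave no call by limma (5 of 8 at an unadjusted p under 0.05 in each mutant against wild type). On every NdpKO array 4 of 8 were lower than on every wild-type array, as were 2.57% of all probes and 4.54% of those at or above level 5. Of the 9 progenitor and cell cycle genes with a probe, Zic2 (0.76 ± 0.10) and the cyclin gene Ccnd2 (0.52 ± 0.08) rose in Ptch+/- against wild-type GNPs (limma, adjusted p = 0.00705 and 0.014). Both had a negative interaction that passed (-0.96 ± 0.14 and -0.68 ± 0.11, adjusted p = 0.0222 and 0.033), as did Grin2b (-1.58 ± 0.31, adjusted p = 0.0481), while that of Sox9 was positive (0.85 ± 0.17, adjusted p = 0.0481). The part of these cell types in the member differences was not tested. Of the 9 progenitor genes 8 had a mean at or above level 5; Atoh1, the factor that defines GNPs, and the neuronal tubulin gene Tubb3 were below level 5 on every array at their single probes.

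The relatives of the members had no GNP call. Of Celf1, Celf3, Celf6, Elavl1 and Elavl2, all 5 had positive differences in Ptch+/- against wild-type GNPs, from 0.00 for Celf3, which was at background, to 0.51 ± 0.12 for Celf6 (adjusted p = 0.0682), which was below level 5. Elavl2 (HuB) differed by 0.21 ± 0.06 in Ptch+/- and by 0.21 ± 0.06 in NdpKO GNPs, with all mutant arrays higher in both (adjusted p = 0.146 and 0.201). Srrm4, the activator of neuronal microexons, differed by 0.93 ± 0.21 in NdpKO GNPs (adjusted p = 0.0926), from a wild-type mean of 4.54. Of 19 other tissue-regulated splicing factors, Qk, the glial quaking gene, was the 1 called in Ptch+/- GNPs, where it fell by 1.38 ± 0.29 on the log2 scale (adjusted p = 0.0468). None of 9 SR protein genes and 10 hnRNP genes passed in any GNP comparison (limma; at most 1 and 3 at an unadjusted p under 0.05 in any one).

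Over the 16 GNP arrays, 23 of the 28 pairs among the 8 members at or above level 5 had a positive correlation, with a median Pearson r of 0.262, and 17 had one within genotypes, with a median of 0.0899. Celf4 and Elavl4 were the closest pair (0.788, and 0.653 within genotypes). By the rule of the highest correlation over these arrays among 9458 other genes, the closest profile to Celf4 was that of Atxn2 (Pearson r = 0.925), that of Exd2 to Elavl4 (0.923), that of Smarca1 to Rbfox2 (0.892), that of Sbno1 to Elavl3 (0.875), that of Klhdc2 to Rbfox1 (0.871), that of Dhps to Celf5 (0.866) and that of Ubap2 to Celf2 (0.77). For Rbfox3 it was Khdrbs2 (0.907), itself a neuronal splicing regulator of the STAR family. Khdrbs2 read 6.51, 6.56, 6.58 and 6.41 in Ptch+/- and 5.93, 4.88, 5.88 and 4.91 in NdpKO;Ptch+/- GNPs. These values are descriptions, since the arrays share genotypes and the closest of many genes was taken.

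MB against GNPs of the same 2 genotypes compares the tumours with the progenitors. By the study's methods tumour RNA came from dissected tumour tissue, while the GNPs were purified cells. Tissue, preparation and cell mix therefore cannot be told apart in this comparison. Of the 10 members, 3 passed the test, Rbfox2 and Rbfox3 lower and Elavl3 higher, where 14.7% of all probes and 37.9% of those at or above level 5 passed. Higher calls were 8.61% and lower calls 6.06% of all probes. At an unadjusted p under 0.05 there were 5 of 10 members and 25.3% of all probes. The median over the members was -0.22, against 0.00 over all probes and -0.10 over those at or above level 5. In 2 members, Rbfox2 and Nova1, both tumours lay below all 8 GNP arrays, as at 11.8% of all probes and 28.2% of those at or above level 5, and in 2, Elavl3 and Nova2, above them, as at 11.3% and 19%. The tumours were 1 per genotype, so this test rests on 2 arrays against 8.

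Rbfox2 read 6.42 in the Ptch+/- MB and 6.64 in the NdpKO;Ptch+/- MB, below all 8 GNP arrays, which lay between 7.44 and 7.92. It fell by 1.11 ± 0.13 on the log2 scale, or 2.16-fold (limma, adjusted p = 0.000791), and the second probe fell by 1.94 ± 0.19 (adjusted p = 0.000368), from 6.96 to 7.48 in GNPs to 5.07 and 5.69. Rbfox3 read 12.42 and 12.03 in the tumours, and the Ptch+/- MB lay within the range of the GNPs, 12.32 to 12.79. Its fall of 0.35 ± 0.07 passed at the brightest probe (adjusted p = 0.0148) and not at the second (-0.35 ± 0.11, adjusted p = 0.069). With array weights the brightest Rbfox3 probe did not pass either (-0.34 ± 0.10, limma, adjusted p = 0.0838). Leaving out either tumour ended the call (-0.40 without the Ptch+/- MB and -0.29 without the NdpKO;Ptch+/- MB, adjusted p = 0.0566 and 0.147). Rbfox1 did not differ beyond its error (0.06 ± 0.13, 95% interval -0.23 to 0.36).

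Elavl3 read 11.51 and 11.82 in the tumours, above all 8 GNP arrays, which lay between 11.11 and 11.42. It rose by 0.40 ± 0.08, or 1.32-fold (adjusted p = 0.0156), and the second probe by 0.58 ± 0.08 (adjusted p = 0.00156). Without the NdpKO;Ptch+/- MB the brightest probe no longer passed (0.26, adjusted p = 0.184). Elavl4 differed by -0.21 ± 0.22 at its brightest probe (adjusted p = 0.658). In the Ptch+/- MB against Ptch+/- GNPs alone it differed by -0.56, a value that rests on a single tumour. The second Elavl4 probe read 4.26 and 5.01 in the tumours against 6.21 to 7.002 in GNPs and fell by 2.01 ± 0.23 (adjusted p = 0.000849). The relative Elavl2 fell by 0.62 ± 0.09 (adjusted p = 0.00244).

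**Figure D4:**
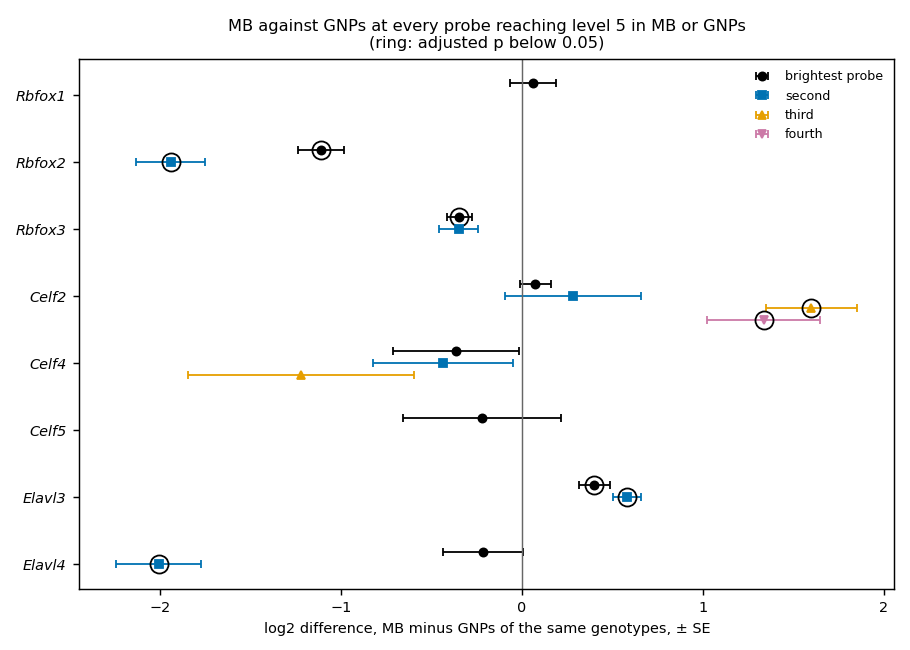
Log2 differences between the 2 MB and the 8 GNP arrays of the same genotypes with their SE (horizontal axis) at each probe of 8 members that reached level 5 in MB or GNPs; symbols mark the order of brightness and a ring an adjusted p below 0.05. Both Rbfox2 probes lie well below 0 (-1.11 and -1.94) and both Elavl3 probes above it (0.40 and 0.58), while the probes of Celf2 and Elavl4 spread.

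Celf4 read 8.63 in the Ptch+/- MB and 9.90 in the NdpKO;Ptch+/- MB, and its second probe read 6.94 and 8.51; without replicates this difference has no test. The first lay below all Ptch+/- GNP arrays and the second above all compound arrays, and together they gave -0.36 ± 0.35 against GNPs (adjusted p = 0.626). Without the NdpKO;Ptch+/- MB, the Celf4 difference against GNPs was -1.24. This value rests on a single tumour, so the spread between tumours is not measured. The third Celf2 probe read 9.35 and 10.07 in the tumours against 7.68 to 8.61 in GNPs, a rise of 1.60 ± 0.25 (adjusted p = 0.00409). The fourth Celf2 probe, at 4.16 to 4.28 in GNPs, read 4.70 and 6.42 (adjusted p = 0.0258), and the brightest differed by 0.08 ± 0.09. Celf5 read 5.85 and 4.80. Nova1 read 4.16 and 4.19 and Nova2 4.25 and 4.23, all below level 5.

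Among other splicing factors, 8 of 19 passed in MB, where 14.7% of all probes and 37.9% of those at or above level 5 passed. Ptbp1, the repressor of neuronal exons in dividing cells, rose by 0.57 ± 0.08 (adjusted p = 0.00255), reading 12.57 and 12.42 against 11.77 to 12.07 in GNPs. Its neuronal relative Ptbp2 read 4.14 in both tumours at its brightest probe, where it was lower (-0.80 ± 0.22, adjusted p = 0.0495), but 6.32 and 6.45 at its second, where GNPs lay between 4.15 and 4.25. Msi1, a progenitor RNA-binding protein, read 7.55 and 8.06 against 4.14 to 4.27 in GNPs. Mbnl1 (0.63 ± 0.09) and Qk (1.37 ± 0.34) were higher, and Khdrbs1 (-0.45 ± 0.09), Khdrbs2 (-1.77 ± 0.36) and Msi2 (-0.88 ± 0.12) lower at their brightest probes (adjusted p between 0.00202 and 0.0341); the third Msi2 probe read 7.75 and 8.06 in the tumours against 4.17 to 4.31 in GNPs. Of SR proteins and hnRNPs, Srsf10 rose (0.76 ± 0.21) and Srsf5 and Hnrnpk fell (-0.60 ± 0.11 and -1.05 ± 0.10).

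Markers of other cells differed between the tumours and the GNPs as well, in a comparison that called 14.7% of all probes and 37.9% of those at or above level 5. Of 8 microglia and leukocyte markers 7 rose, C1qc (4.38), C1qb (3.79), Aif1 (3.69), C1qa (2.94), Cx3cr1 (2.14) and Laptm5 (2.09) by the largest log2 differences, with a summed signal of 7280 and 3720 in the tumours against 564 to 987 in the GNPs of these genotypes, and Ptprc was below level 5 everywhere. Of 11 maturing granule neuron markers 6 fell: Vsnl1 (-4.21 ± 0.26), Kcnd2 (-3.99 ± 0.36), the synaptic vesicle gene Syt1 (-3.87 ± 0.11), Slc17a7 (-2.01), Cbln1 (-1.53) and Mapt (-0.66). Of 9 progenitor and cell cycle genes 6 passed, Barhl1 (1.23), Ccnd2 (0.84), Mcm2 (0.84) and Ccnd1 (0.80) higher and Zic2 (-1.56) and Sox2 (-1.42) lower. Of 10 astrocyte and Bergmann glia markers 6 passed, Apoe (2.44), Gfap (1.84), Slc1a2 (1.59), Sox9 (1.09) and S100b (0.06, at background) higher and Aqp4 (-0.43) lower. Their part in the member differences was not tested.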

How the data were processed

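Total RNA of GNPs (16 arrays) and MB (2 arrays) was hybridised to the MouseWG-6 v2 BeadChip. The authors exported the intensities from BeadStudio and processed them with the neqc function of limma (background correction, quantile normalisation and log2 transformation), and the deposited table holds these log2 values for 45281 probes. Every array had a median of 4.13 and 76% of probes had a mean below level 5, so low values are compressed and differences there understate change. Array files hold no counts, and the number of arrays limits the precision. Samples were grouped by title. Of the probes, 34885 had 1 gene symbol in the platform annotation, 18 had several and 10378 had none, and all 10 members matched RefSeq.

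Linear models were fitted to the log2 values with limma 3.58.1 in R 4.3.3, with 1 mean per genotype over the 16 GNP arrays, and, for MB, tissue with genotype as a covariate over 2 MB and 8 GNP arrays. P-values were adjusted by Benjamini-Hochberg over all 45281 probes and called below 0.05. The text names all 10 members, the check genes, fixed relatives with Ptbp1, Ptbp2 and Srrm4, the genes of closest profile, and from the context lists up to 6 further called genes per list and comparison, by size of the difference. Context lists covered family relatives, other splicing factors, SR proteins, hnRNPs, and markers of progenitors, postmitotic and maturing granule neurons, glia, microglia, endothelium, Purkinje cells, interneurons and erythroid cells. The members, the lists and level 5 were chosen with earlier results of these data known. Alternatives were the second probe, array weights, eBayes with trend and robust settings, a replicate block, a filter on dim probes, cyclic loess, the other label of the disagreeing array, arrays left out, and fits of single groups or tumours.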

Additional observations from a re-analysis of the deposited data

Results flagged for a closer look

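The effect of NdpKO in Ptch+/- and in wild-type GNPs was compared by the interaction term, and 3 probes of members stood out by it or by opposite directions on every array. At the brightest Celf4 probe the interaction was -0.90 ± 0.19 (limma, adjusted p = 0.0625), which missed the threshold, and every NdpKO array lay above every wild-type array while every NdpKO;Ptch+/- array lay below every Ptch+/- array. At the third Celf4 probe the same arrangement gave -2.08 ± 0.41 (adjusted p = 0.0489). At the third Celf2 probe the interaction was -1.27 ± 0.24 (adjusted p = 0.0476), where the compound and Ptch+/- arrays overlapped. Of 32 groups of 4 arrays examined for a member array far from the other 3, none held one, where chance gives about 1 in 20.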

How the results depend on the processing

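The number of members called in Ptch+/- against wild-type GNPs depended on the processing. It went from 1 to 0 with the second brightest probes, with NdpKO;Ptch+/- replicate 2 moved to NdpKO, and with only the 2 groups fitted, to 2 with array weights or with trend and robust settings, to 3 without NdpKO replicate 4 and NdpKO;Ptch+/- replicate 1, and to 4 after the filter on dim probes, and it was 0 to 0 with any 1 of the 8 wild-type and Ptch+/- arrays left out. With the replicate number as a block it was 0 (limma, Celf4 adjusted p = 0.0667). Same-numbered arrays had a median correlation of deviations of -0.0412 over 24 pairs, with a range from -0.339 to 0.471. Of 16 arrays 4 correlated best with their own number. Whether the numbers pair the arrays cannot be told from these values. NdpKO against wild type went from 0 to 1 after the dim filter, and NdpKO;Ptch+/- against Ptch+/- from 0 to 1 without both arrays that stood apart. The interaction went from 0 to 1 with array weights or trend and robust settings, to 2 after the dim filter, to 3 without both arrays, and was 0 to 1 with 1 array left out. Both arrays stood apart on the first principal component of these same data, so the counts without them are not independent of that choice. MB against GNPs went from 3 to 0 with the NdpKO;Ptch+/- MB alone and was 2 to 4 with 1 array left out.

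Directions turned at few, mostly small, values. With the second probes, Celf2 gave 0.38 in Ptch+/- against wild type, -0.31 and -0.40 for the compound against Ptch+/- and NdpKO, and -0.78 for the interaction, Rbfox2 gave -0.37 and -0.13 for the compound against NdpKO and wild type, and Celf5 gave 0.060 in MB. With NdpKO;Ptch+/- replicate 2 moved to NdpKO, Rbfox3 gave -0.015 in NdpKO against wild type and Rbfox2 0.027 in the compound against Ptch+/-. Without both arrays that stood apart, the compound against NdpKO gave -0.0080 for Celf2, -0.16 for Celf5 and -0.019 for Rbfox2. The Ptch+/- MB alone gave -0.14 for Celf2 and 0.23 for Celf5, and the NdpKO;Ptch+/- MB alone 0.51 for Celf4, -0.065 for Rbfox1 and 0.14 for Elavl4. With 1 array left out, MB gave -0.14 to 0.29 for Celf2, -1.24 to 0.51 for Celf4, -0.67 to 0.23 for Celf5, -0.56 to 0.14 for Elavl4 and -0.065 to 0.19 for Rbfox1. In the same way Celf2 gave -0.10 to 0.028 in Ptch+/- and -0.056 to 0.072 in NdpKO against wild type, the compound against NdpKO gave -0.12 to 0.42 for Celf5, -0.20 to 0.073 for Elavl4 and -0.019 to 0.15 for Rbfox2, and against Ptch+/- -0.37 to 0.17 for Celf5, -0.018 to 0.087 for Elavl3 and -0.13 to 0.027 for Rbfox2. The cause of these changes was not tested, other than that the dim filter adjusts over fewer probes (11324 in GNPs). The difference of Rbfox2 in MB lay between -1.23 and -0.98 with each of the 10 arrays left out, and was -0.98 in the NdpKO;Ptch+/- MB alone. Fits that keep a single tumour do not measure the spread between tumours.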

Other observations

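The 7 endothelial markers had a median interaction of 1.55, with no call (limma; 3 at an unadjusted p under 0.05), and a median difference of 0.03 in NdpKO;Ptch+/- against wild-type GNPs. Their summed signal was 2540 to 6670 in wild-type, 1830 to 2970 in Ptch+/-, 1830 to 3430 in NdpKO and 2130 to 4460 in NdpKO;Ptch+/- GNPs, which overlap, and 511 and 591 in the tumours, where Cldn5 and Emcn fell. The 5 GABAergic interneuron markers with a probe summed to 1490 to 3610 in GNPs and to 938 and 945 in the tumours, with Gad1 and Slc32a1 lower. Of 7 oligodendrocyte markers Pdgfra passed in Ptch+/- against wild-type GNPs and 5 in MB, 2 higher and 3 lower. Of 4 Purkinje cell markers Pcp2 fell in MB, and of 2 erythroid markers Hba-a1 did. Of 9 genes of newly postmitotic granule neurons, Cntn2 was higher in Ptch+/- against wild-type GNPs and had a negative interaction, and both passed. Stmn2 and Map2 passed in MB, 1 higher and 1 lower. Over all probes 1.09% passed in Ptch+/- against wild-type GNPs and 0.495% in the interaction. In MB 14.7% of all probes and 37.9% of those at or above level 5 passed.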
